A study of Mus musculus with 48 samples.

Results

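Ribosome loading in mouse lung was measured as the Ribo-seq signal of each gene set against its RNA-seq signal, in embryos at day 15.5 of gestation (E15.5) and in young adults 42 days after birth (P42). The 8 lung libraries of a series of 48 were chosen by their tissue label. They fall into 4 groups of 2 labelled biological replicates: E15.5 RNA-seq, E15.5 Ribo-seq, P42 RNA-seq and P42 Ribo-seq. All came from wild-type C57BL/6 mice with no treatment or altered allele named, and the whole lung was lysed with cycloheximide, so every value is an average over the cell types of the organ. How many animals stand behind a replicate is not given in the sources used here, and p-values measure only the spread between replicate libraries, pooled over the 24 groups of the series, so they rest largely on libraries of the other tissues. A gene entered the comparison at a stage when its mean RNA-seq level there was at least 5 TPM, the length-scaled share of a library's reads. This left 11683 of 22055 genes at E15.5 and 9597 at P42.

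Ribo-seq sequences the stretch of message that a ribosome shields from nuclease, so its signal per gene follows how many ribosomes sit on that gene's messages. Set against the amount of message, it gives a relative measure of how strongly a message is translated, called translational efficiency or ribosome loading. Messages for ribosomal proteins and elongation factors start with a C followed by a run of pyrimidines, the 5′ terminal oligopyrimidine or TOP motif, through which growth signalling by mTOR controls their translation. At E15.5 the mouse lung is a branching epithelial tree in dividing mesenchyme, before alveoli form. At P42 it is a gas-exchanging organ of flat type I and surfactant-making type II alveolar cells, capillary endothelium, airway epithelium and resident macrophages.

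The ratio was log2(Ribo-seq TPM + 1) minus log2(RNA-seq TPM + 1), with the median gene of the stage set to 0, so every value places a gene against the median gene of its stage and carries nothing on total protein synthesis. The median taken off was -1.31 at E15.5 and -0.56 at P42. Reads on listed genes ranged from 18.66 to 46.83 × 10⁶ per lung library. The listed genes held 81.77 to 93.38% of each RNA-seq library's TPM, against 39.2 to 61.13% for Ribo-seq. Where footprint TPM is said to lie above or below message TPM, raw shares of unlike totals are compared. Only the centred ratio places a gene against the median gene. Between 12293 and 14154 genes reached 1 TPM. The P42 replicates differed more than most: by the mean chi-square of reads per gene, the P42 lung Ribo-seq pair ranked 24 of 24 groups from the closest, at 113.07, and the P42 RNA-seq pair ranked 22, at 89.65, while the E15.5 Ribo-seq and RNA-seq pairs ranked 1 and 5, at 1.95 and 6.34. Markers of the lung were present at both stages: Sftpc, which encodes surfactant protein C, stood at 3240 and 4037 TPM in the E15.5 RNA-seq libraries and at 35283 and 32475 TPM in those of P42. The airway secretory marker Scgb1a1 was at 1.83 and 3.39 TPM in E15.5 message and took 22.04 and 33.88% of all TPM in P42 message. In bulk tissue, fewer cells of a type and less RNA per cell cannot be told apart. Each stage's values came from tables of their own, so a difference between stages and a difference between tables cannot be told apart either.

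At E15.5, 1126 genes had a ratio above the median gene and 1495 below it, at a limma adjusted p under 0.05 and a log2 distance of at least 1, which is 22.4% of the genes tested. At P42 the counts were 1569 and 1711, or 34.2%. By direction, 9.64% were higher and 12.8% lower at E15.5, and 16.3 and 17.8% at P42, the shares against which the counts of each gene list are to be set. Throughout, list genes counted as above or below the median gene, or as having risen or fallen, are those that passed both limits. A gene not called can lie on either side. The spread of the ratio over genes was wider at P42, with an SD of 1.12 against 0.873. The ratios ranged from -5.44 to 6.38 at E15.5 and from -7.75 to 4.57 at P42. Across the 8855 genes tested at both stages the ratios had a Pearson r of 0.738, a description over genes that share libraries. Of these genes, 871 were low at both stages, 509 were high at both, 8 went from high to low and 1 from low to high. The single gene of the last kind was Copg2, whose exons overlap Mest, so its reads are uncertain (this gene was picked after its values were seen). The test of the difference between the stages called 739 genes higher (8.35%) and 663 lower (7.49%) at P42, 15.8% of those tested in all, with changes from -5.55 to 4.11. Fitted on the 8 lung libraries alone, 2586 genes were called at E15.5, 3264 at P42 and 1253 for the change. Direction depends on what is held at 0. With no centring the calls were 35 higher and 7619 lower at E15.5 and 3497 higher and 116 lower for the change. With a median-of-ratios scaling they were 53 higher and 5699 lower at E15.5 and 193 higher and 5237 lower at P42. The median gene stood at -1.31, -0.56 and 0.81 with no centring and at -0.98, -1.12 and -0.09 with that scaling, for E15.5, P42 and the change. As centred in the main fit, the median change was 0.061. The sign of a list median between 0 and 1.31 at E15.5, between 0 and 1.12 at P42, or between -0.75 and 0 for the change turns under at least 1 of them. Small list medians above 0 for the change can also turn with that scaling. Every direction given here is relative to the median gene. Calls kept under all 3 settings numbered 35 higher and 1495 lower at E15.5, 193 and 1711 at P42, and 503 and 116 for the change.

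**Figure D1:**
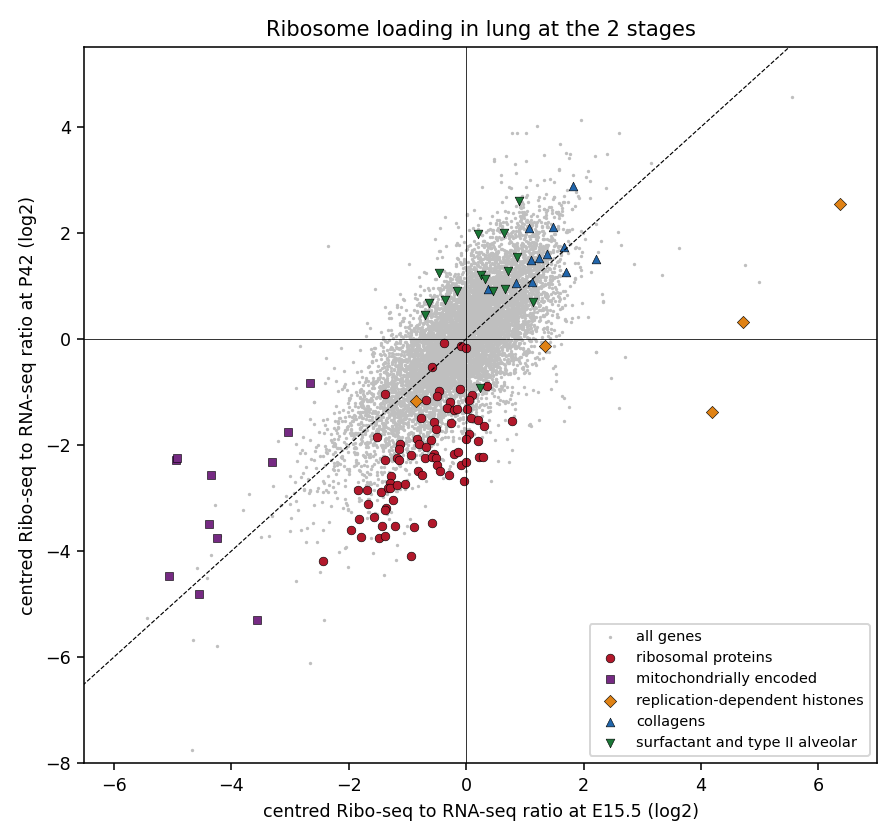
Centred Ribo-seq to RNA-seq ratio (log2) at E15.5 on the x axis and at P42 on the y axis for the 8855 genes tested at both stages (grey), with 5 gene lists in colour and the line of equal ratios dashed. Ribosomal protein genes lie below the dashed line for 77 of 80, mitochondrially encoded genes lie at the lower left, and the histone genes Hist1h1c, Hist3h2a and Hist1h2bc lie far to the right, below the dashed line.

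The highest ratios at E15.5, among genes whose exons overlap no other gene, included histones and genes of other organs. Hist1h1c, a linker histone gene (chr13:23738808-23740367 on GRCm38), had 35.2 and 30.3 TPM of RNA-seq and 1113 and 1139 TPM of Ribo-seq, a centred ratio of 6.38 (SE 0.26, limma adjusted p = 4.2e-21). The footprint values stood far above the message values with no overlap. Liver genes followed, with Afp at 5.62, Alb at 5.55 and Apoa2 at 4.31. Dpysl2, a cytoskeletal protein of migrating cells and neurons, had 55.3 and 52.3 TPM of message and 267 and 274 of footprints, a ratio of 3.62. S100a8 and S100a9, the calprotectin genes of neutrophils, stood at 2.64 and 2.58.

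The lowest ratios at E15.5 included mitochondrially encoded genes, of which mt-Cytb stood at -4.38, and several nuclear genes. Rtl8a, a gene derived from a retrotransposon Gag protein, had 44.9 and 53.1 TPM of message and 0.043 and 0.0719 TPM of footprints, a ratio of -4.25 (SE 0.20, limma adjusted p = 1.36e-19). Its message was plain and the footprints counted on it were close to nil. How reads with several matches were handled is not given in the sources used here, so such low counts of single genes are uncertain. Tpt1, which encodes the translationally controlled tumour protein, had 1726 and 1824 TPM of message against 95.3 and 95.2 TPM of footprints, a ratio of -2.90. Cox7a2l, a respiratory supercomplex factor, stood at -3.36.

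The highest ratios at P42, among genes whose exons overlap no other gene, included Alb, C7, Glp1r, Gpam and Fasn. Calls above the median gene were more frequent among long genes at this stage: in 5 bins of equal size by coding length, and outside the ribosomal protein list, 33.1% of genes were higher in the bin of the longest and 6.7% in that of the shortest. Alb led at 4.57, but its message was 15.5 TPM in the first RNA-seq library and 1.28 in the second. C7, a terminal complement component, had 54.5 and 20.7 TPM of message and 603 and 337 of footprints, a ratio of 4.26 (SE 0.26, limma adjusted p = 1.33e-16). Glp1r, the receptor for glucagon-like peptide 1 (chr17:30901817-30940791), had 14.2 and 6.21 TPM of message and 151 and 87.5 of footprints, a ratio of 4.03. In both genes every footprint library lay above every message library. Gpam and Fasn, enzymes of glycerolipid and fatty acid synthesis, stood at 3.89 and 3.42. The laminin chain Lama4 stood at 3.68 and Myh9, the heavy chain of non-muscle myosin IIA, at 3.51.

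Among genes that overlap no other, the lowest P42 ratios were again led by Rtl8a at -5.78, followed by Tpt1 at -4.55. Ccni, an atypical cyclin, had 195 and 199 TPM of message against 6.33 and 4.68 of footprints, a ratio of -4.38 (SE 0.23, limma adjusted p = 3.91e-18). Ybx1, an RNA-binding protein that packages messages, had 851 and 1064 TPM of message against 34.8 and 35.7 of footprints, a ratio of -4.16. All 4 of these messages were present in every adult RNA-seq library while few footprints were counted on them. The handling of reads with several matches is not known here either. Ribosomal protein genes reached this end of the list at P42, with Rps24 at -3.74 and Rps27 at -3.73. Lars2, a mitochondrial leucyl-tRNA synthetase, also lay there at -3.94, but its message was 601 TPM in one P42 library and 42.2 in the other.

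Among genes that overlap no other, the largest rises from E15.5 to P42 were in Gpam, Glp1r, Ndnf and Lmo7. Gpam, the acyltransferase that starts triglyceride synthesis (chr19:55067268-55127238), had 44.1 and 49.8 TPM of message and 38.2 and 38.6 of footprints at E15.5. At P42 it had 8.05 and 3.52 TPM of message and 76.9 and 52.3 of footprints. Message was lower and footprints were higher in both P42 libraries, and the centred ratio changed by 2.86 (SE 0.41, limma adjusted p = 7.05e-06). Glp1r changed by 2.81, from 1.21 to 4.03. Ndnf, a secreted factor, changed by 2.78 and Lmo7, a junction-associated protein, by 2.54. Slc25a5, the adenine nucleotide carrier ANT2 of the inner mitochondrial membrane (chrX:36795651-36798807), had 308 and 303 TPM of message at E15.5 and 39.3 and 21.8 at P42. Its footprints were 106 and 112 TPM at E15.5 and 114 and 75.9 at P42. Message was thus many times lower at P42 while the footprint values of the stages overlapped, and the ratio changed by 2.36.

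In the same set of genes, the largest falls were in 2 histone genes, described with that group, and then in Mt1, Smim22 and Ybx1. Mt1, a metal-binding metallothionein, had 27.8 and 27.6 TPM of message and 35.3 and 36.5 of footprints at E15.5, and 199.8 and 325 TPM of message with 64.0 and 53.1 of footprints at P42. Its P42 message was many times that of E15.5 and its footprints higher by much less, and the ratio changed by -3.22 (SE 0.43, limma adjusted p = 2.17e-06). Smim22, a small membrane protein, changed by -3.21. Ybx1 (chr4:119277981-119294604) had about the same message at both stages, 843 and 885 TPM at E15.5 against 851 and 1064 at P42. Its footprints were 147 and 156 TPM at E15.5 and 34.8 and 35.7 at P42, a change of -2.97. Its footprint values separated the stages by a wide gap and its message values lay close together. Cdkn1c, the growth-restraining inhibitor p57, changed by -2.57 with message lower too, at 780 and 739 TPM before and 109 and 127 TPM after.

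Ribosomal protein messages made up the largest group that fell. All 80 genes of the list were tested. At E15.5, 29 were called below the median gene and 0 above, beside 12.8% of all genes called lower, and 68 of the 80 values lay below 0. The list median was -0.64 against 0 for all genes. At P42, 73 were called lower, beside 17.8% of all genes, with a median of -2.22. From E15.5 to P42, 61 of the 80 fell and 0 rose, beside 7.49% of all tested genes called lower. The median change was -1.53 against 0.061 for all tested genes, and 77 of the 80 values lay below 0. By subunit, 30 of 33 small-subunit genes fell, with a median of -1.76, and 31 of 47 large-subunit genes, with a median of -1.20, a difference that was not tested. The E15.5 count depended on the setting, at 78 with no centring, 68 with median-of-ratios scaling and 21 when footprints were counted per coding base. The count of falls was 27 with no centring, 44 with the trend on length taken off, and 49 to 61 when a library was left out. Many of these genes have pseudogene copies, and how reads with several matches were handled is not given in the sources used here, so single members are uncertain.

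Promoter sequences from RefSeq on GRCm38.p6 were at hand for 59 of the 80 ribosomal protein genes. A TOP-like start was searched for on the gene's own strand as a C followed by at least 4 more C or T letters, beginning within 5 bases of the annotated start. It was found in 29 of the 59, 49.2%, against 21.2% of the 27025 genes in the table. The 26 bases shown run from 10 before the start, and capitals mark the pyrimidine run. The first 3 genes fell and have the run, Eef1a1 is an elongation factor of the same class, Rps28 and Rps16 fell without a run in this window, and Rpl27a and Rpl15 have the run but did not pass the test.
Rpl35, chr2:39005116-39005141, minus strand: ccgccCTTTCCTCTTTCTCTCgaacc
Rpl13a, chr7:45128730-45128755, minus strand: cctgcgacaagaCCTCCTCCTTTCCC
Rps10, chr17:27635229-27635254, minus strand: gcgcacgCCCCTTCCTTTCCagcctc
Eef1a1, chr9:78481709-78481734, minus strand: ctccgCCCTCTTCCCgagggtggggg
Rps28, chr17:33824547-33824572, minus strand: cgcgtgcggtctcgcgagagcgaaag
Rps16, chr7:28350679-28350704, plus strand: ttctgtcgtgacgtagcactcaatgc
Rpl27a, chr7:109519185-109519210, plus strand: cgtgagCTCCTCCCTTTTCCCTTTCT
Rpl15, chr14:18270971-18270996, minus strand: agaaagCCTTCTTCCTTTCCTCTggc

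The fall was of about the same size with and without this start. Of the 29 genes that have it, 23 fell, with a median change of -1.59, and of the 30 without it 24 fell, with a median of -1.56. The 21 genes with no start in the table had a median of -1.43, and 14 of them fell. Among tested genes outside the list, the 1648 with such a start had a median change of 0.052 and the 5196 without it 0.059. The match is to an annotated start, and the start used in the lung was not measured here.

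Rpl35, a large-subunit protein, shows the change in single libraries. Its message was 607 and 642 TPM at E15.5 and 356 and 391 at P42, and its footprints were 165 and 170 TPM at E15.5 and 27.2 and 17.7 at P42. Footprints differed between the stages by a much larger factor than message, and the ratio changed by -2.89 (SE 0.39, limma adjusted p = 2.18e-06). Rpl27a was not called: its message was 462 and 487 TPM at E15.5 and 234 and 195 at P42, its footprints 72.6 and 72.1 and then 67.8 and 72.0. The footprint values of Rpl27a overlapped between the stages, and its change of 0.35 did not pass (SE 0.66, limma adjusted p = 0.737). Rpl15 had a change of 0.04 (SE 0.32).

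**Figure D2:**
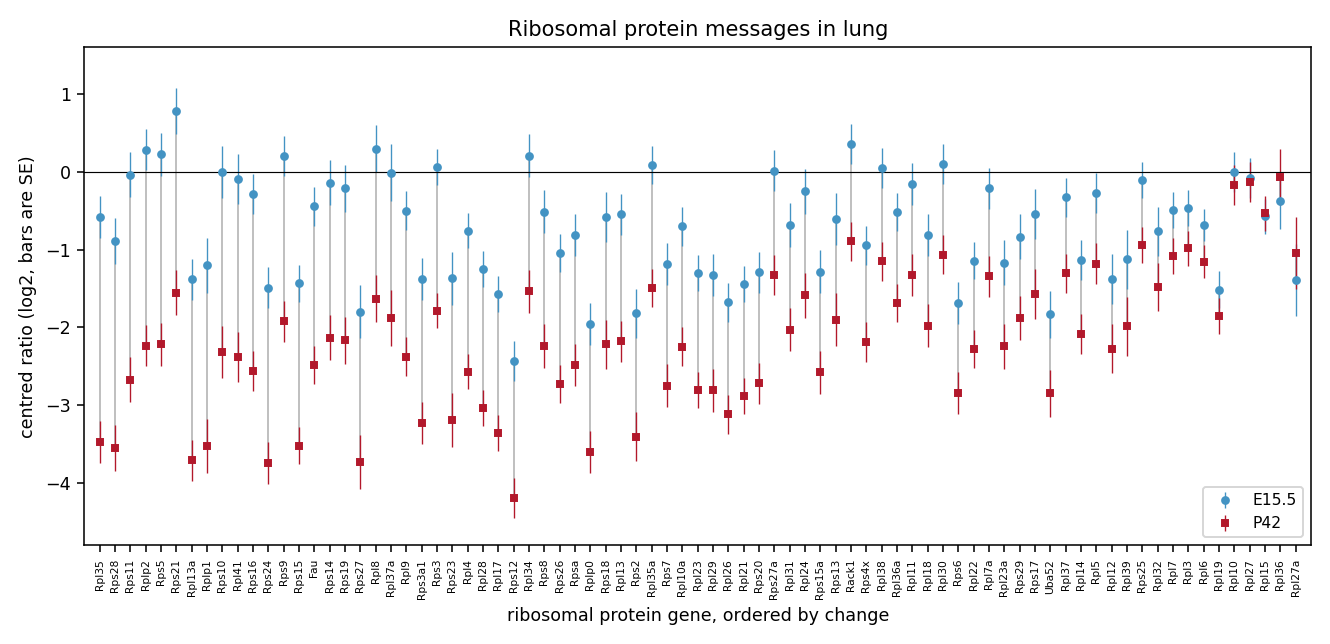
Centred ratio (log2, bars are the SE of the fit) of 79 of the 80 ribosomal protein genes at E15.5 (blue circles) and P42 (red squares), ordered by change. The P42 values lie below those of E15.5 for 76 of the genes drawn, among which Rpl35, with a change of -2.89, is at the left end and Rpl27a, with 0.35, at the right.

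Elongation factors and other messages of the TOP class also fell in part. Of 17, 8 fell and 0 rose, beside 7.49 and 8.35% of all tested genes, with a median change of -0.89, and with no centring none passed. Eef1a1, which carries tRNA to the ribosome, had 6466 and 6323 TPM of message and 888 and 920 of footprints at E15.5, and 1859 and 1683 with 213 and 101 at P42. Its ratio was low at both stages, -1.51 and -3.03, and changed by -1.52 (SE 0.37, limma adjusted p = 0.00332). Tpt1 changed by -1.66, Eef1g by -1.71 and Eef1b2 by -1.57. Of 34 initiation factor genes 3 rose, close to the 8.35% of all tested genes, and 1 fell, with a median change of -0.11. The scaffold eIF4G1 gene Eif4g1 rose by 1.30 and the eIF3 core subunit gene Eif3a by 1.48. Leaving out the first P42 Ribo-seq library took the number that rose from 3 to 6.

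Ribosomal protein genes are short, and the change also varied with coding length over all genes. Spearman's rho between change and coding length was 0.412 over 8846 genes, against 0.08 for the E15.5 ratio and 0.322 for the P42 ratio. With the coding share of exon length, rho was 0.268 for the E15.5 ratio, 0.231 for the P42 ratio and 0.026 for the change. The ratios at each stage thus varied with that share, and the list counts of the main fit were not adjusted for it. Genes were put into 5 bins of equal size by coding length. In the first, 36 to 704 coding bases, 64 ribosomal protein genes had a median change of -1.53 and the 1706 other genes one of -0.33, of which 17.5% fell. In the next bin, 705 to 1111 bases, 14 ribosomal protein genes had -1.42 against -0.14 for the others. In the bin of the longest genes, from 2407 bases, the other genes had a median of 0.48, and 19.5% rose. Replicates of a group also differed with length, with a rho of 0.243 between the E15.5 RNA-seq libraries and of -0.082, -0.054 and -0.07 for the other groups. The part of length in the changes was not tested beyond taking off its trend.

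**Figure D3:**
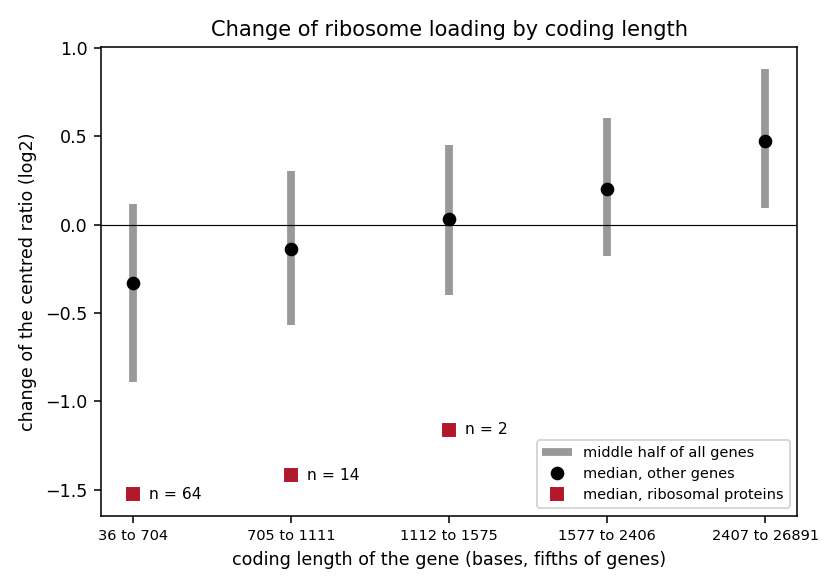
Change of the centred ratio (log2, P42 minus E15.5) in 5 bins of coding length in bases: black points are the medians of genes that encode no cytosolic ribosomal protein, grey bars the range from the lower to the upper quartile of all genes, red squares the medians of ribosomal protein genes with their number. Other genes run from -0.33 in the bin of the shortest genes to 0.48 in that of the longest, and ribosomal protein genes lie at -1.53 and -1.42 in the bins up to 1111 bases.

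A lower ratio of ribosomal protein genes at P42 was also seen in other tissues, least in retina. Set on the 4013 genes tested in all 6 tissues, the median change of the 80 genes was -1.44 in lung, -2.56 in liver, -1.87 in heart, -1.41 in kidney, -0.81 in brain and -0.27 in retina. In lung, 76 of 80 lay below 0, against 80 in liver and in heart, 79 in kidney, 74 in brain and 54 in retina. The limma test of lung's change against the mean of the 5 other tissues called 0 of the 80, of which 11 had an unadjusted p under 0.05, with a median difference of -0.13, beside 1.30% of all 4013 genes called.

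Genes encoded in the mitochondrial genome carried few footprints for their message at both stages. They are translated by mitochondrial ribosomes, which differ from those of the cytosol. Of 13 listed genes, 11 were tested. All 11 were called lower than the median gene at E15.5, beside 12.8% of all genes, with a median of -4.35. At P42 10 of 11 were called lower, beside 17.8%, and all 11 values lay below 0, with a median of -2.57. They took 6.20 and 6.55% of all TPM in E15.5 message but 0.128 and 0.131% in footprints, and 8.71 and 12.38% in P42 message but 1.142 and 0.477% in footprints. mt-Co1, the catalytic subunit of cytochrome oxidase, had 10519 and 10626 TPM of message and 211 and 205 of footprints at E15.5, and 8444 and 8632 with 1443 and 666 at P42. Its message differed little and its footprints were higher in both P42 libraries, a change of 1.79 (SE 0.46, limma adjusted p = 0.00524). Of the 11, 4 rose, mt-Co1, mt-Atp6, mt-Atp8 and mt-Nd4l, and 1 fell, mt-Nd6, by 1.75 on the log2 scale. The shares of all tested genes were 8.35 and 7.49%. The call for mt-Nd6 was lost without the second P42 RNA-seq library, at -1.22 (limma adjusted p = 0.0911), and that for mt-Nd4l without any single lung library but the second P42 Ribo-seq library. mt-Nd6 overlaps mt-Nd5 on the other strand and mt-Atp6 overlaps mt-Atp8 and mt-Co3, so their reads are uncertain.

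Lung had the lowest ratio of the 6 tissues for 10 of 10 mitochondrial genes at E15.5 and for 10 of 11 at P42. The median at E15.5 was -4.37 in lung, 0.37 in liver and between -3.67 and -2.50 in the other 4 tissues, and at P42 it was -2.43 in lung, -0.41 in liver and between -2.09 and -0.87 elsewhere. Tested against the mean of the other 5 tissues, 8 of 10 were lower in lung at E15.5, where 0.227% of 7936 genes were called, and 10 of 11 at P42, where 3.58% of 4195 were. For the change, 0 of the 10 were called in limma, of which 2 had an unadjusted p under 0.05.

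Nuclear genes of the same respiratory complexes were not low at E15.5. Of 75, 34 were called above the median gene at that stage, beside 9.64% of all genes, and 0 below. The median was 0.98, and 7 of the 75 values lay below 0. At P42 19 were called above, beside 16.3%, and 3 below, with a median of 0.33. From E15.5 to P42, 17 fell, beside 7.49%, and 0 rose, with a median change of -0.45, and with no centring the E15.5 median lies below 0 and the change above it. Cox6a1, a small subunit of cytochrome oxidase, had 657 and 591 TPM of message and 690 and 744 of footprints at E15.5, and 532 and 400 with 209 and 233 at P42. In raw TPM its footprints exceeded message at E15.5 and lay below it at P42. Its centred ratio changed by -2.02 (SE 0.39, limma adjusted p = 0.000315). The 17 became 9 without the second E15.5 RNA-seq library or the first E15.5 Ribo-seq library and 10 without the second E15.5 Ribo-seq or the second P42 RNA-seq library. Of 71 mitochondrial ribosomal protein genes, 8 fell, beside 7.49% of all tested genes, and 1 rose.

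Replication-dependent histone messages end in a stem-loop in place of a poly(A) tail, and the RNA-seq libraries were made by poly(A) selection. Of 66 listed genes only 7 reached the message floor at each stage, so these values describe the few that the selection kept. At E15.5 6 of 7 were called above the median gene, beside 9.64% of all genes, with a median of 3.26. The summed message of all 66 was 728 and 696 TPM against footprints of 44066 and 45764 TPM, and at P42 402 and 332 TPM against 4145 and 3357. In these sums footprints far exceeded the selected message at both stages and were many times lower at P42. Of the 7 genes tested at P42, 2 were called above the median gene and 3 below, with a median of -0.14. The shares of all genes at that stage were 16.3 and 17.8%. Hist1h1c fell by 3.83 on the log2 scale (SE 0.36, limma adjusted p = 1.02e-09). Hist1h2bc had 33.3 and 36.6 TPM of message and 261 and 264 of footprints at E15.5, and 182 and 180 with 26.9 and 80.8 at P42, a change of -5.55. Its message was higher and its footprints were lower in both P42 libraries, and its P42 ratio of -1.37 was -0.43 and lost its call without the first P42 Ribo-seq library. With no message floor, 56 histone genes were called higher at E15.5, beside 791 of 18886 genes tested. From E15.5 to P42 59 fell, beside 1427 of 18347.

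Most collagen genes were called above the median gene at both stages. Of 19 collagen genes, 16 were called above it at E15.5, beside 9.64% of all genes, and all 19 values lay above 0. The list median was 1.35, close to 0 with no centring. At P42 11 of 12 were above, beside 16.3%, with a median of 1.52, and 6 without the first P42 Ribo-seq library. Col1a1, a chain of the main fibrillar collagen (chr11:94936224-94953042), had 1216 and 1066 TPM of message and 2069 and 2195 of footprints at E15.5, and 157 and 138 with 420.4 and 194 at P42. Footprints lay above message at both stages although both were several times lower at P42. The change of its ratio, -0.70 (SE 0.54), did not pass. Of 12 collagens tested for the change 2 rose and 0 fell, beside 8.35 and 7.49% of all tested genes.

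Some matrix glycoproteins rose. Among 26 genes of elastic fibres and other matrix, 4 rose and 2 fell, beside 8.35 and 7.49% of all tested genes, and the list median change was -0.10. Fn1, fibronectin (chr1:71585520-71653200), had 185 and 194 TPM of message and 293 and 300.1 of footprints at E15.5, and 18.1 and 16.7 with 313 and 152 at P42. Its message was lower at P42 in every library while its footprint values overlapped, and the ratio went from 1.95 to 4.13, a change of 2.18 (SE 0.37, limma adjusted p = 6.69e-05). Ogn, the proteoglycan osteoglycin, changed by 1.71, from 0.06 to 1.77. Thbs1, thrombospondin, changed by 1.47 and the fibrillin gene Fbn1 by 1.28. Without the second P42 RNA-seq library Thbs1 stood at 0.99 and Fbn1 at 1.17, and neither passed. Fbn1 also failed without the second library of E15.5 RNA-seq or E15.5 Ribo-seq, at 1.26 and 1.27, and without the first of P42 Ribo-seq, at 0.77. The 4 became 2 without the second P42 RNA-seq library and 9 without the second P42 Ribo-seq library. Itga8, an integrin chain of lung mesenchyme and smooth muscle, changed by 2.29, from 0.85 to 3.14.

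Of 16 genes of surfactant and type II alveolar cells, 7 rose from E15.5 to P42 and 1 fell, beside 8.35 and 7.49% of all tested genes, and the other 8 did not pass. The median change was 1.01. At E15.5 limma called 0 of 16, of which 7 had an unadjusted p under 0.05 and 2 were called with voom on recovered reads, and at P42 11 of 20 were above the median gene, beside 16.3%, with a median of 1.18. Lamp3, a lamellar body protein (chr16:19653378-19706375), had 17.9 and 27.9 TPM of message and 9.43 and 10.3 of footprints at E15.5, and 264 and 205 with 796 and 492 at P42. In raw TPM, footprints lay below message before birth and above it in the adult. The centred ratio of Lamp3 changed by 1.78 (SE 0.42, limma adjusted p = 0.00253). The fatty acid transporter gene Cd36, which capillary endothelium and macrophages also express, had 19.6 and 19.1 TPM of message and 13.8 and 15.1 of footprints at E15.5, and 424 and 322 with 1786 and 1321 at P42, a change of 1.70. Abca3, the lipid pump of lamellar bodies, also changed by 1.70 and the transcription factor gene Etv5 by 1.31. The 7 became 4 without the second E15.5 RNA-seq library, either E15.5 Ribo-seq library or the second P42 RNA-seq library.

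The most abundant surfactant gene passed no test. Sftpc had footprints of 3171 and 3242 TPM at E15.5 and 36874 and 37770 at P42, beside the message given above. Message and footprints were both far higher at P42, and its ratios of 1.14 and 0.70 and its change of -0.44 were not called. Sftpb, with 155 and 233 TPM of message and 119 and 122 of footprints at E15.5 and 3530 and 3173 with 5267 and 3662 at P42, changed by 0.29 (SE 0.58). Scgb1a1 had a P42 ratio of -0.15 (SE 0.59) and was under the floor at E15.5.

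Among type I alveolar genes 3 of 13 rose and 1 fell, beside 8.35 and 7.49% of all tested genes, with a median change of 0.11. Vegfa, the growth factor through which type I cells signal to capillary endothelium (chr17:46016993-46032369), had 120.5 and 136 TPM of message and 18.6 and 19.5 of footprints at E15.5, and 223 and 173 with 196 and 212 at P42. Mean message went from 128 to 198 TPM and mean footprints from 19.1 to 204 TPM, and the ratio went from -1.38 to 0.61, a change of 1.98 (SE 0.31, limma adjusted p = 2.04e-05). Ager, the receptor that marks type I cells, changed by -0.39 (SE 0.50). Airway secretory genes were called above the median gene for 8 of 19 at P42, beside 16.3% of all genes. Fewer were called without the second P42 Ribo-seq library, and 2 of 9 rose. Of 9 ciliated cell genes 1 rose and 1 fell, and at E15.5 limma called 0 of 9, of which 4 had an unadjusted p under 0.05 and 1 was called with voom. Of 25 endothelial genes 1 rose and 3 fell. Egfl7, a secreted endothelial factor, was low at both stages, -1.39 and -2.20, and Kdr, the VEGF receptor, high, 1.19 and 2.16. The endothelial falls became 1 without either E15.5 RNA-seq library, the second E15.5 Ribo-seq library or the second P42 RNA-seq library.

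**Figure D4:**
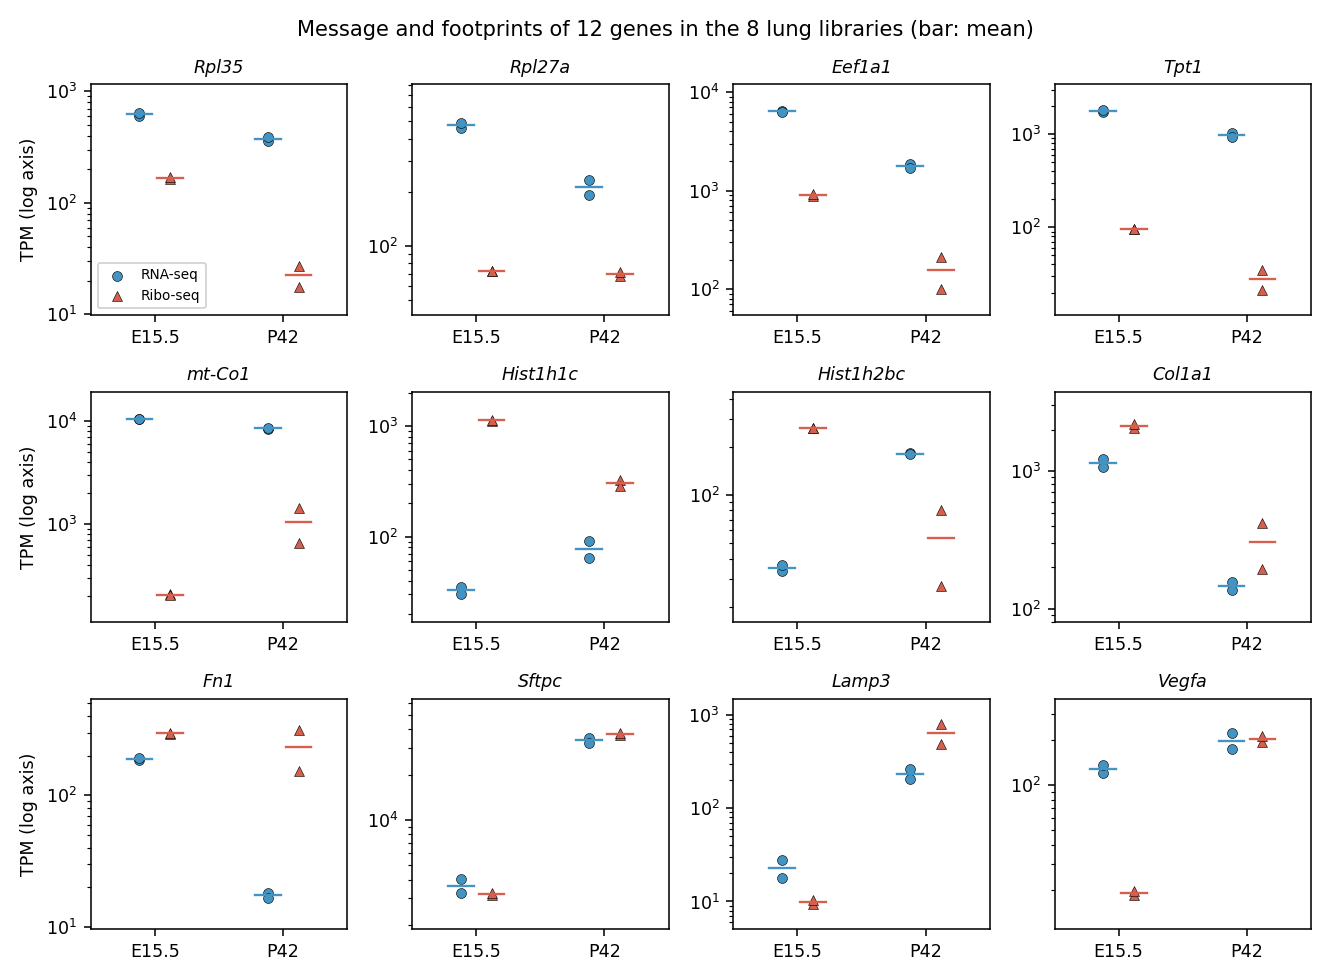
TPM (log axis) of 12 genes in the 8 lung libraries, RNA-seq as blue circles and Ribo-seq as red triangles, with bars at the mean of 2 libraries, at E15.5 and P42. Footprints of Rpl35 lie at 165 and 170 TPM and then at 27.2 and 17.7 while those of Rpl27a lie between 67.8 and 72.6, and those of Lamp3 and Vegfa pass from below their message at E15.5 to above it or level with it at P42.

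Many myeloid genes were above the median gene in the adult lung. Of 25 macrophage and myeloid genes 14 were higher at P42, beside 16.3% of all genes, and 0 lower, with a median of 1.15. Of 16 tested at E15.5 6 were higher, beside 9.64%. Cd68, a lysosomal protein of macrophages, had 18.6 and 18.1 TPM of message and 5.89 and 6.49 of footprints at E15.5, and 21.8 and 29.6 with 94.9 and 38.3 at P42. Message was somewhat higher and footprints were much higher in both P42 libraries, though the 2 P42 footprint values lay far apart. Cd68 changed by 1.89 (SE 0.40, limma adjusted p = 0.00108). It was the single member of 15 that rose, and 0 fell. The summed message of the list was 584 and 542 TPM at E15.5 and 8393 and 7890 TPM at P42. Ptprc, the leukocyte antigen CD45, had 6.75 and 8.58 TPM of message and 35.3 and 18.2 of footprints at P42, a ratio of 2.17. Of 12 lymphoid genes 2 were higher and 1 lower at P42, beside 16.3 and 17.8% of all genes. Of 5 tested for the change limma called 0, with 0 at an unadjusted p under 0.05 and 0 with voom. Of 17 genes of antigen presentation and interferon 2 fell, beside 7.49% of all tested genes, with H2-Ab1 at -2.47 and H2-K1 at -1.09. The list median of -0.72 lies above 0 with no centring. H2-Ab1 stood at -1.36 without the second E15.5 RNA-seq library and H2-K1 at -0.95 without the first P42 Ribo-seq library, and neither then passed. At E15.5 7 of the 17 were higher, beside 9.64% of all genes, and fewer without the second RNA-seq library of that stage.

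Calls among regulators of lung development were below the shares of all genes on the higher side and somewhat above them on the lower. Of 48 tested at E15.5, 3 were higher and 8 lower, beside 9.64 and 12.8% of all genes, and 17 of the 48 values lay above 0. At P42 3 of 36 were higher and 9 lower, beside 16.3 and 17.8%. For the change, 2 rose, or 1 without the second E15.5 RNA-seq or the first P42 Ribo-seq library, and 1 fell. Nkx2-1, the transcription factor of lung epithelium, had 322 and 377 TPM of message and 55.2 and 60.9 of footprints at E15.5, and 163 and 182 with 59.2 and 33.0 at P42. It was low at both stages, -1.26 and -1.38, with a change of -0.13 (SE 0.37). Spry1, an inhibitor of FGF signalling, stood at -1.29 and -2.04 and the receptor Notch2 at 1.76 and 2.06.

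Messages with known control of translation included some of the lowest ratios. Ferritin messages carry an iron-responsive element that blocks their translation when iron is low. Ftl1, the ferritin light chain, had 1011 and 958 TPM of message against 58.0 and 62.3 of footprints at E15.5 and 1012 and 818 against 59.2 and 44.7 at P42, ratios of -2.70 and -3.56. All 4 message values lay far above the footprint values, and the change of -0.86 did not pass. Fth1, the heavy chain, stood at -1.15 and -2.03. The list of genes with iron-responsive elements lay near the median gene. At E15.5 2 of 9 were lower and 0 higher, beside 12.8 and 9.64% of all genes, with a median of -0.01. At P42 2 of 8 were lower and 1 higher, beside 17.8 and 16.3%, with a median of -0.12. Tfrc, the transferrin receptor, whose iron-responsive elements act on message stability, rose by 1.73, from 0.92 to 2.64. It was the 1 of 8 genes of the list that was called for the change, beside 8.35% of all tested genes called higher. Of the polyamine genes 5 of 10 were below the median gene at E15.5, beside 12.8% of all genes, and 5 of 9 at P42, beside 17.8%, and 0 were above. The remaining members did not pass, and for the change limma called 0 of 9, with 0 at an unadjusted p under 0.05 and 0 with voom. The antizyme gene Oaz1, which is read through a ribosomal frameshift, stood at -1.99 and -2.44, Amd1 at -1.98 and -1.77, and Odc1, the rate-limiting enzyme, at -1.07 and -1.53.

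Messages with upstream reading frames or of the stress response had 5 of 18 below the median gene and 3 above at E15.5, beside 12.8 and 9.64% of all genes, and 6 below and 3 above at P42, beside 17.8 and 16.3%. For the change 3 fell, beside 7.49%, and the list median was 0.14. Atf4 stood at -1.57 and -2.84, and its change of -1.27 (SE 0.50) did not pass. Atf5, a stress factor of the same kind, had 75.7 and 69.6 TPM of message and 12.2 and 15.4 of footprints at E15.5, and 158 and 90.4 with 13.0 and 2.61 at P42, a change of -2.51 (SE 0.52, limma adjusted p = 0.000724). Selenoprotein genes, read through a recoded stop codon, had 8 of 18 below the median gene at P42, beside 17.8%, with a median of -0.90. At E15.5 3 of 19 were below, beside 12.8%, and 4 of 17 fell, beside 7.49%. Gpx4, the peroxidase that protects membranes from lipid oxidation, had 99.7 and 102 TPM of message and 41.9 and 44.7 of footprints at E15.5, and 174 and 150.1 with 34.1 and 27.5 at P42, a change of -1.91 (SE 0.37, limma adjusted p = 0.000309). Message was higher and footprints were lower in the adult. Gpx1 changed by -1.81 and Selenow by -1.73. Immediate early genes, which are induced within minutes of a stimulus, had 9 of 21 below the median gene at P42, beside 17.8%, and 6 of 19 fell, beside 7.49%, 3 without the first P42 RNA-seq library. Jund had 278 and 237 TPM of message and 28.3 and 29.5 of footprints at E15.5 and 561 and 402 with 33.8 and 25.7 at P42, a change of -1.61.

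Proteasome subunits and chaperones had more calls above the median gene than below it. The shares of all genes beside the counts that follow were 9.64% higher and 12.8% lower at E15.5, 16.3 and 17.8% at P42, and 8.35% that rose and 7.49% that fell. Of 33 proteasome subunits 19 were higher at E15.5 and 14 of 34 at P42, with medians of 1.04 and 0.92 and none lower, though without centring the E15.5 median is below 0. Psmd14, the deubiquitinase of the proteasome lid, changed by 1.40, and 2 of 33 rose in all and 2 fell. The rises became 1 without the second P42 Ribo-seq library. Chaperones and translocon subunits of the endoplasmic reticulum were higher for 11 of 28 at each stage and lower for none, and 1 rose. Hspa5, the chaperone BiP, stood at 1.36 and 2.33. Heat shock and cytosolic chaperones were higher for 6 of 18 and 10 of 18, and for the change limma called 0, with 3 at an unadjusted p under 0.05 and 0 with voom. Of 18 cholesterol synthesis genes 4 rose and 1 fell. Cell cycle genes were higher for 14 of 40 at E15.5 and 6 of 16 at P42, and of 16 tested for the change 1 rose and 1 fell, under the shares of all genes. Cdk4, which drives entry into the cycle, fell by 1.49 on the log2 scale. Of 33 splicing regulators 1 rose and 2 fell, also under those shares, with Srsf2 at -1.75, and 4 were lower at P42 but 1 without the second P42 RNA-seq library. Of 9 replacement histone genes, whose messages have a poly(A) tail, 3 fell and 0 rose. Smooth muscle genes had 1 rise, Itga8, and 2 falls, and 6 of 15 were higher at E15.5 but 3 without the second RNA-seq or the first Ribo-seq library of that stage. Clock genes had 3 rises of 13, mesothelial genes 1 of 4 and the list of fetal growth genes 2 rises and 1 fall of 10. The fetal growth rises became 1 without the first E15.5 RNA-seq library or either E15.5 Ribo-seq library and 0 without the second P42 RNA-seq or the first P42 Ribo-seq library.

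**Figure D5:**
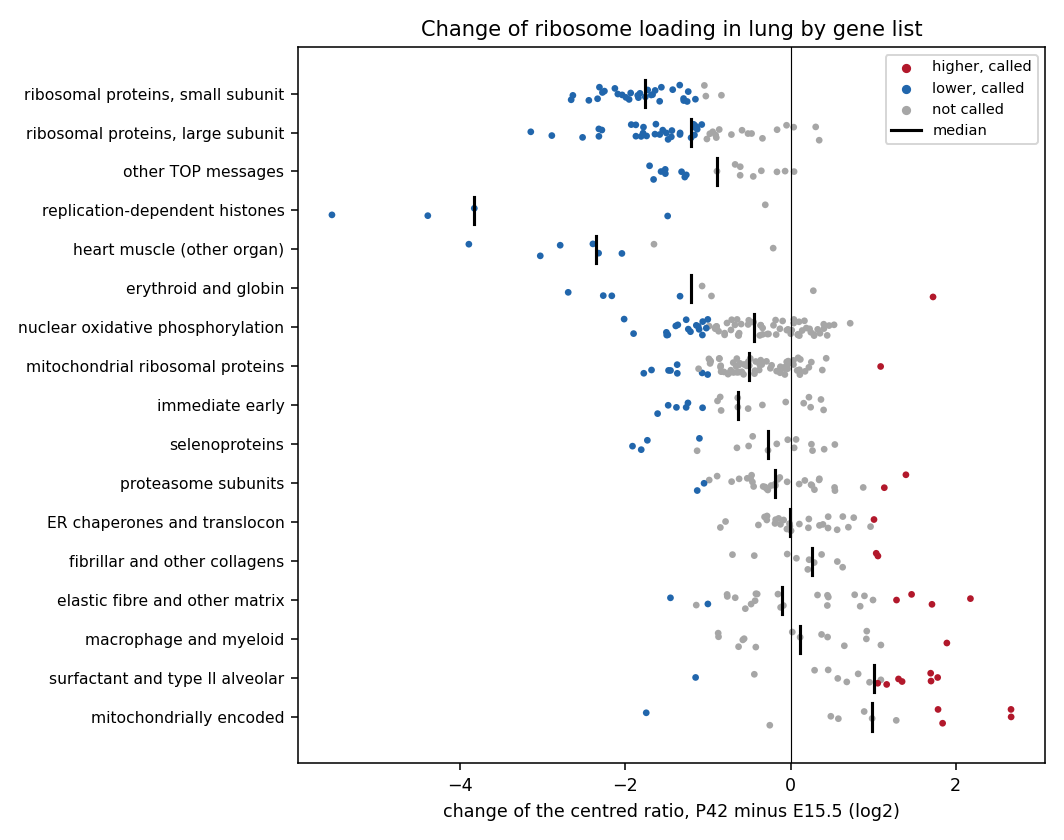
Change of the centred ratio (log2, P42 minus E15.5) of each tested gene in selected lists, red where called higher, blue where called lower, grey where not called, with the list median as a black bar. Medians run from -3.83 for the few histone genes and -1.76 and -1.20 for the ribosomal protein subunits to 1.01 for surfactant and type II alveolar genes.

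Messages of other organs were present in the embryonic lung libraries and differed between the RNA-seq replicates. The 14 heart muscle genes summed to 1501 and 538 TPM in E15.5 message but 1300 and 1310 TPM in footprints. The list of thymus and oesophagus genes summed to 91.6 and 39.8 TPM of message against 60.7 and 64.0 of footprints, and Pth, parathyroid hormone, was at 46.5 and 0.505 TPM of message with 25.5 and 26.1 of footprints. Pth had a ratio of 2.97, and 0.48 without the second E15.5 RNA-seq library. Footprints were level between replicates where message differed by severalfold. Beside the counts that follow stand the shares of all genes: 9.64% higher at E15.5, and 8.35% that rose and 7.49% that fell. Of 10 heart genes 8 were above the median gene at E15.5, 1 without the second E15.5 RNA-seq library and 5 without the first E15.5 Ribo-seq library. The 6 of 8 that fell became 0 without that RNA-seq library and 2 without the first P42 Ribo-seq library. All 5 tested liver genes were higher at E15.5, with summed message of 148 and 77.5 TPM against 1266 and 1265 of footprints, and 1 of 2 fell. Skeletal muscle genes had 2 of 4 higher and those of thymus and oesophagus 3 of 4. Globins and other red cell genes had 4 falls and 1 rise of 8, and the falls became 1 without the second E15.5 RNA-seq, second E15.5 Ribo-seq or second P42 RNA-seq library and 2 without the first library of P42 RNA-seq or P42 Ribo-seq. The part of neighbouring tissue in these ratios was not tested.

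Few genes were called between lung and the other 5 tissues at E15.5, and more were at P42. The test pools the spread over all groups, while the P42 lung pairs were among the farthest apart and the E15.5 pairs among the closest. With library weights the calls were 35 in place of 18 at E15.5 and 76 in place of 150 at P42. The difference in counts between the stages was not tested. With genes at or above 5 TPM in all 6 tissues and the median gene at 0, 6 were higher and 12 lower in lung at E15.5, 59 and 91 at P42, and 21 and 31 for the change. These are 0.0756 and 0.151% of genes tested at E15.5, 1.41 and 2.17% at P42, and 0.523 and 0.772% for the change. Slc25a5 led the genes that overlap no other gene: its change in lung exceeded the mean of the other tissues by 2.40 (SE 0.40, limma adjusted p = 0.000742), and its P42 ratio by 2.31. Suclg1, a subunit of succinyl-CoA ligase in the citric acid cycle, had 46.1 and 45.0 TPM of message and 39.0 and 38.8 of footprints at E15.5 and 9.502 and 5.37 with 47.7 and 39.5 at P42. Its message was several times lower in the adult and its footprints were level, and its change exceeded that elsewhere by 2.06. Myh9 exceeded it by 1.54 and Vegfa by 1.52. Both calls rest on single libraries. Myh9 stood at 1.38 without the second E15.5 RNA-seq library and at 1.40 without the second P42 RNA-seq library, with limma adjusted p = 0.0927 and 0.0688. Vegfa lost its call without any 1 of 5 libraries: the second of E15.5 RNA-seq, either of E15.5 Ribo-seq, the second of P42 RNA-seq and the second of P42 Ribo-seq. It stood at 1.29 to 1.53 there, with limma adjusted p from 0.0573 to 0.0862. Nme2 stood at 2.91, but its exons overlap those of another gene. On the other side, the difference in change was -1.77 for Cdkn1c, -1.43 for Ccni and -1.27 for Ybx1. All 3 lost their call without either E15.5 RNA-seq library, without either E15.5 Ribo-seq library or without the second P42 RNA-seq library, and in the last case they stood at -1.56, -1.32 and -1.01. The call of Ccni was also lost without the second P42 Ribo-seq library and that of Ybx1 without the first. The change count ranged from 7 without the second P42 RNA-seq library to 71 without the first P42 Ribo-seq library, so this group rests on single libraries.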

How the data were processed

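RNA-seq and Ribo-seq values of 48 mouse libraries were used, 2 for each of 6 tissues, 2 stages and 2 assays. The lung libraries are 8 of them. Per the labels' protocols, messages were selected by their poly(A) tail and footprints were prepared with ARTseq reagents and Ribo-Zero. The authors deposited TPM in 4 tables, 1 for each stage and assay, computed from reads on exons. Per the submitters' processing notes the tools were CASAVA 1.8.2, cutadapt 1.8.1, TopHat2 2.0.14, Subread and featureCounts 1.6.2 on GRCm38.p6. Parameters and the handling of reads with several matches are not given in the sources. A poly(A) library lacks most histone message, and footprints cover coding sequence while TPM is per exon length, so a long untranslated region lowers a gene's ratio.

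Of 22055 genes, 22029 matched GENCODE M21 without the version and 20636 with it. TPM times exon length gave whole multiples of 1 step for 100% of values worth 1 to 200 reads, within 0.05 of a read, so depth was recovered as 9.15 to 54.71 × 10⁶ reads on listed genes per library. Ratios were fitted on log2(TPM + 1) with limma 3.58.1 in R 4.3.3, over all 48 libraries in 24 groups (24 residual degrees of freedom), with an empirical Bayes variance trend and Benjamini-Hochberg adjustment over all tested genes. The log2 scale with a pseudocount of 1 understates changes of low genes. A gene was tested at a mean RNA-seq level of at least 5 TPM at the stage, at both stages for the change, and in all 6 tissues for lung against the mean of the other 5. At E15.5 1672 tested genes lay at 5 to 10 TPM and 1194 lay just outside at 2.5 to 5; at P42 these were 2654 and 2030. The ratio was centred on the median gene of each stage. Calls needed an adjusted p under 0.05 together with a log2 value of at least 1. The fit was also run on data simulated with the spread of these libraries, and the outcome is not given here. Replicate pairs were compared by chi-square of recovered reads per gene. The E15.5 lung Ribo-seq pair was the closest of 24, with a median of 0.732 against 0.455 from counting alone, and was kept as 2 samples. The P42 lung Ribo-seq pair was the farthest by the mean, with a median of 12.4. Tables and figures used Python 3.11.15, numpy 2.4.6, pandas 2.3.3, scipy 1.17.1 and matplotlib 3.10.9. Promoter sequences came from RefSeq.

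The members and the 40 gene lists were chosen with earlier results of these data known. Named genes are the 12 highest and 12 lowest called protein-coding genes of each comparison that overlap no other gene and whose libraries did not overlap, up to 4 called members of each list in each direction, and a set of lung and control genes. Only part of the genes that the rule gives are printed, and some are not reported here or drawn. Genes printed outside it (Copg2, Nme2, and the genes of sequences and of leading tissue differences) were picked after their values were seen. Alternatives covered the pseudocount, floors, scaling, variance model, replicate block, single libraries left out, footprints per coding base and, added after seeing the data, voom on recovered reads and removal of the trend over coding length.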

Additional observations from a re-analysis of the deposited data

Results flagged for a closer look

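The difference between the stages was tested in lung, and 1402 genes passed, 739 higher and 663 lower. Lung also differed from the mean of the other 5 tissues, by the test of that difference, for 18 genes at E15.5, for 150 at P42 and for 52 in the change from E15.5 to P42.

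Slc25a5, an adenine nucleotide carrier, was higher in lung by 2.31 at P42 and by 2.40 in its change. The change of Suclg1 was higher in lung by 2.06, that of Myh9 by 1.54 and that of Vegfa by 1.52. The last 2 lost their call when single libraries were left out. Nme2 differed by 2.91 in its change, but its exons overlap another gene. The changes of Cdkn1c, Ccni and Ybx1 differed by -1.77, -1.43 and -1.27. These calls, too, were lost when single libraries were left out.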

How the results depend on the processing

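At E15.5, 2621 genes were called, and the count was 1582 with a pseudocount of 4, 7654 with no centring and 5752 with median-of-ratios scaling. At P42, 3280 were called, against 1616 with a floor of 20 TPM and 5430 with that scaling. For the change, 1402 were called, against 2837 with no floor, 624 with a floor of 20 TPM and 3613 with no centring. Lung against the other tissues gave 18 calls at E15.5, against 338 with no floor, 9 with a floor of 20 TPM, 8 with a Ribo-seq floor of 1 TPM and 35 with library weights. At P42 the 150 became 1394, 49, 606 and 76 with no floor, a floor of 20 TPM, no centring and library weights. For the change the 52 became 25 with a pseudocount of 0.25, 1194 with no floor, 10 with a floor of 20 TPM, 24 with a Ribo-seq floor, 783 with no centring and 146 with median-of-ratios scaling. A higher floor tests fewer genes and a lower one more, and for the other settings the cause was not tested.

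Leaving out each lung library in turn gave 2523 to 2682 calls at E15.5, 3207 to 3469 at P42 and 1045 to 1462 for the change. For lung against the others it gave 4 (without the second E15.5 RNA-seq library) to 20 at E15.5, 57 to 246 (without the second and the first P42 RNA-seq library) at P42 and 7 to 71 for the change. A group left with 1 library takes its spread from the other groups. With the replicate block the counts were 2627, 3283, 1446, 20, 157 and 52. Deviations of same-numbered lung libraries correlated by -0.041 at E15.5 and 0.144 at P42, so the numbers were not taken to pair the samples.

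Of 2864 recomputed values of 134 named results, 2752 kept their side of the threshold and, where called, their direction, 99 lost their call, 10 gained one and 3 turned: with no centring Glp1r at E15.5 was -0.10 and Kdr -0.12, and with footprints per coding base Fth1 at E15.5 was 0.019. Reads are fewest where message is near the floor and in the first P42 Ribo-seq library, the shallowest of the 8 at 18.66 × 10⁶ reads. The precision of single libraries was not measured.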
